A study of Mus musculus with 6 samples.

Results

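The genes described here are 10 genes of bone morphogenetic protein (BMP) signalling and its ID targets: the ligand genes Bmp4 and Bmp7, the signal transducer Smad1, the inhibitors Smad6, Smad7 and Bambi, and Id1, Id2, Id3 and Id4. They were taken by exact gene symbol from the array annotation, which held 27962 gene names, and all 10 were present, with 16 of the 41174 non-control probes. Their RNA was profiled in mouse ES cells, pluripotent embryonic stem cells, of an F1 cross between 129 and C57BL/6 mice, 48 h after an siRNA against BRG1 (3 arrays) or a scrambled control siRNA (3 arrays). BRG1, encoded by Smarca4, is the ATPase of SWI/SNF chromatin remodelling complexes. Cy3-labelled material from 500 ng of RNA per sample was read on single-colour Agilent arrays, and cells of both groups had received an siRNA. Whether the replicates were separate cultures is not stated in the labels; the p-values therefore cover only the spread among these arrays, which may be technical, and precision is limited by their number.

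BMP ligands are secreted factors that bring together serine/threonine kinase receptors at the cell surface. The receptors phosphorylate SMAD1 and its close relatives, which join SMAD4, enter the nucleus and switch on target genes, among them the Id genes and the inhibitors Smad6, Smad7 and Bambi that feed back on the signal. ID proteins are helix-loop-helix proteins without a DNA-binding basic region; they bind E proteins and keep them from DNA, and in mouse ES cells BMP-driven Id expression is known to help block neural differentiation.

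The probes printed here are those that read coding sequence of the gene that rose, Smad6, and of Id2, Id3 and Bmp4, which did not pass the test; each is 60 bases long, 5′ to 3′, and is taken from the scanner files. The Smad6 probe lies on chr9:63982002-63982061 (minus strand, mm7 build), within the C-terminal part of the protein that contacts receptors and other SMADs. The Id2 probe, one of 2 for that gene, spans 22931820 to 22932167 on chromosome 12 (minus strand) and ends on the stop codon, in capitals. The Id3 probe spans 135522597 to 135522771 on chromosome 4 (plus strand). Both spans are longer than the probe, so these probes cross a gap in the genomic alignment. The Bmp4 probe lies on chr14:41704207-41704266 (minus strand). Exon annotation of the mm7 build was not used here.
Smad6 probe: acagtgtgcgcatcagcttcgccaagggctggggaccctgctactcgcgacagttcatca
Id2 probe: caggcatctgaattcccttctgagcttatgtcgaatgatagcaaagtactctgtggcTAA
Id3 probe: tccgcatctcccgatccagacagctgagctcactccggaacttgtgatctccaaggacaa
Bmp4 probe: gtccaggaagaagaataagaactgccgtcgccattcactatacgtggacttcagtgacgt

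The bases upstream of the start site are shown for Smad6 and Id4, which had a probe past the test, and for Id2, which shares a motif with Id4 (RefSeq, GRCm38.p6 build, 250 bases each). Capitals mark GGCGCC, a GC-rich element to which BMP-activated SMADs are known to bind. This element was searched on both strands in the windows of 6 members. The SMAD-binding core GTCTG was searched there too, as was the E-box CANNTG, bound by the E proteins that ID proteins hold back. GGCGCC was found once each in Id2 and Id4, 2 of the 6, against 9.59% of 32851 mouse promoter windows of the same length. GTCTG was found in 1 of the 6, Id3, against 42.2% of all windows, and CANNTG in 2, Bmp4 and Id2, against 66.2%. The Smad6 window held none of the 3. No window was at hand for Id1 or for Bmp7, which also had probes past the test. Windows of Smad7 and Bambi were not searched. The Smad6 window is chr9:64022060-64022309 (minus strand), the Id4 window chr13:48260866-48261115 (plus strand) and the Id2 window chr12:25096093-25096342 (minus strand).
Smad6 promoter: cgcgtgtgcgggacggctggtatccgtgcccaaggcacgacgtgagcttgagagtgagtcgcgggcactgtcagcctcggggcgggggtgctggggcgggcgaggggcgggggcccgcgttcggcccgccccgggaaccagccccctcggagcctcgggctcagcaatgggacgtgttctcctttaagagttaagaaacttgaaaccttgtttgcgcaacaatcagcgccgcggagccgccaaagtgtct
Id4 promoter: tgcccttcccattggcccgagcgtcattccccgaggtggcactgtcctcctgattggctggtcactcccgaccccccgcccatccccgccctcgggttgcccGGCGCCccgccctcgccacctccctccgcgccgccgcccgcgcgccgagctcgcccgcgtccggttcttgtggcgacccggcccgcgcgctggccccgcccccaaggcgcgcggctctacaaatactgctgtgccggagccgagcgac
Id2 promoter: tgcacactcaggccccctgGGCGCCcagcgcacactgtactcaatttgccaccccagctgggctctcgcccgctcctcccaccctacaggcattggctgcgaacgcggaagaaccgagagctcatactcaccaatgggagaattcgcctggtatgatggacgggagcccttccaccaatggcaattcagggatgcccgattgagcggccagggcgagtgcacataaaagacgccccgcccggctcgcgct

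Between 60.9% and 70.9% of spots on the BRG1 siRNA arrays stood well above background, and between 64.8% and 75.3% on the control arrays. The siRNA lowered its target: the brightest Smarca4 probe was at 65.8% of its control level (log2 difference -0.60 ± 0.07 SE, limma adjusted p = 0.00456), and the other probes were at 54.7% and 66.2%. ES cell markers were bright in both groups, with 10 of 10 well above background on all 6 arrays. Nanog, Klf4 and Utf1 rose (0.41, 0.34 and 0.43), Pou5f1 fell (-0.33, adjusted p = 0.0242) and 6 did not pass. Over all genes tested 9.02% were higher and 12.2% lower. Slide 1 held BRG1 siRNA replicate 1 and the 3 control arrays, and slide 2 held BRG1 siRNA replicates 2 and 3, so a comparison within a slide rests on a single BRG1 siRNA array. Within slide 1 the Smarca4 difference was -0.54 (adjusted p = 0.0828), and the same difference had an adjusted p of 0.0506 with slide as a block. In these bulk cultures, fewer cells of a type and less RNA per cell cannot be told apart.

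Most of the BMP and ID genes differed little with BRG1 siRNA, and those past the test did not share a direction. Smad6 rose 1.58-fold, Bmp7 fell on both of its probes, by 1.29-fold and 1.19-fold, and the dimmer Id4 probe fell 1.41-fold. Levels are log2 signals from which the 75th percentile of that array was subtracted, and a call means a Benjamini-Hochberg adjusted p under 0.05 over all 26262 probes tested. Of the 16 member probes 15 were tested, since they stood well above background on all arrays of 1 or both groups, and 4 of these passed, 1 higher and 3 lower, against 19.6% of all probes tested (8.60% higher, 11.0% lower). On 8 of the 15 probes the groups did not overlap, 3 higher and 5 lower, against 41.7% of all probes (18.5% higher, 23.1% lower). With each gene taken by its brightest probe, 1 of 10 rose and 1 fell, 2 in all, against 9.02% and 12.2%, 21.3% in all, of the 18258 genes tested, so the members' share lay near that of all genes. At that level the groups did not overlap for 2 genes that were higher and 3 that were lower, against 18.8% and 25.0% of all genes. The median difference of the 10 was -0.014, beside -0.037 over all genes. Without BRG1 siRNA replicate 2, control replicate 2 or control replicate 3 only 1 of the 10 genes passed, and without BRG1 siRNA replicate 3 the number was 3.

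**Figure D1:**
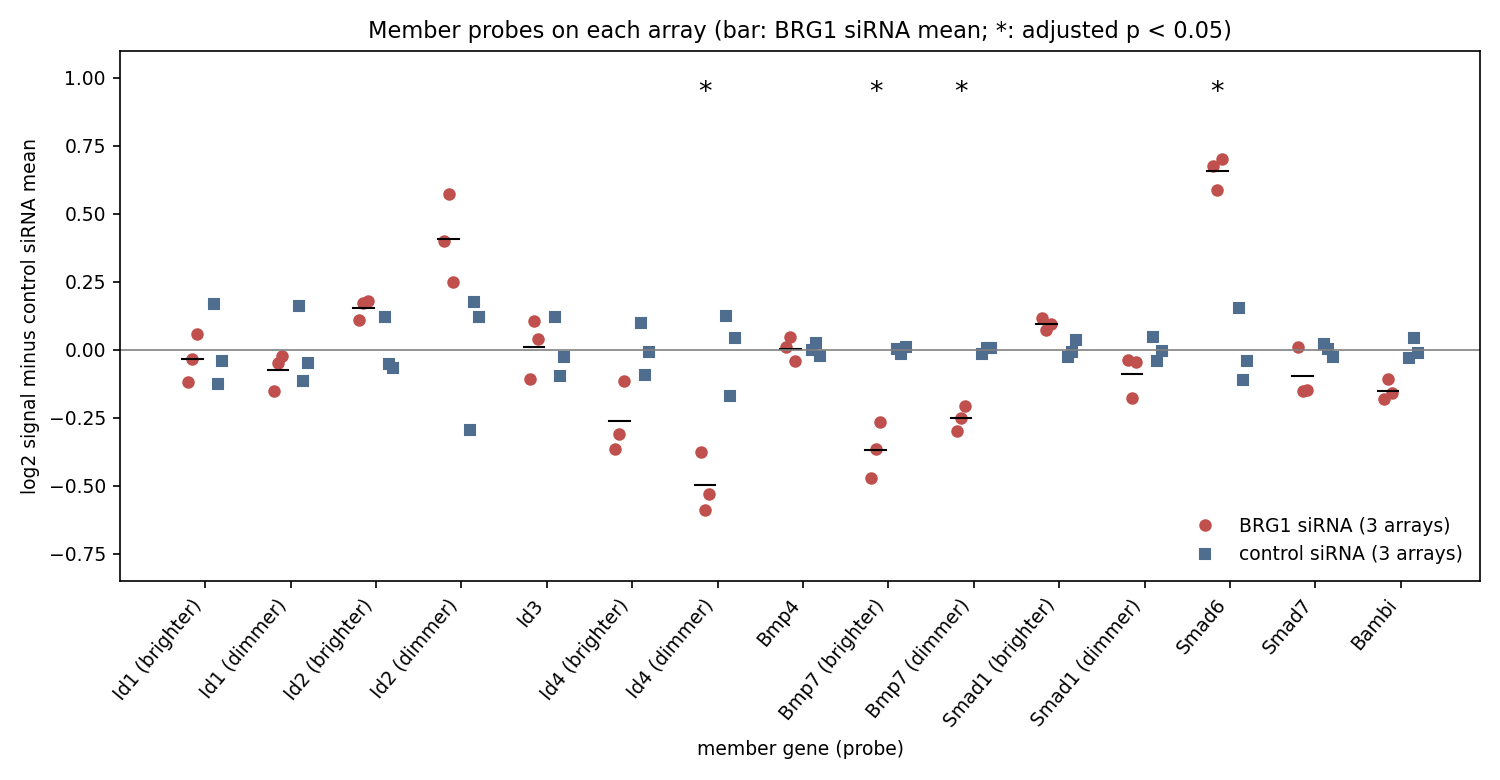
Signal of each tested member probe on each array, as log2 difference from the mean of the control siRNA arrays (vertical axis). Circles on the left are the 3 BRG1 siRNA arrays with their mean as a bar, squares on the right the 3 control arrays. Stars mark adjusted p under 0.05. The BRG1 siRNA circles lie above the control squares for Smad6, the brighter Smad1 probe and the dimmer Id2 probe. They lie below the squares for both Bmp7 probes, both Id4 probes and Bambi.

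Among the ligands, Bmp4, the BMP most often studied in early mouse development, was level between groups, whereas Bmp7, a ligand that can pair with other BMPs, was lower. The Bmp4 probe, printed 10 times on each array, gave 1.43, 1.47 and 1.38 in BRG1 siRNA cells, against 1.42, 1.45 and 1.40 in control cells. The groups overlapped, and the log2 difference was 0.0049 ± 0.044 (SE, adjusted p = 0.95), with a 95% confidence interval from -0.10 to 0.11. With spike-in scaling the difference was 0.21 (adjusted p = 0.162).

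The brighter Bmp7 probe (A_52_P278354, 172614090 to 172614149 on chromosome 2, minus strand, mm7) gave -1.31, -1.21 and -1.11 in BRG1 siRNA cells, against -0.84, -0.86 and -0.83 in control cells. All 3 BRG1 siRNA arrays lay below all 3 control arrays, and the difference was -0.37 ± 0.06 (SE, adjusted p = 0.0143), a level of 77.6% of control. The dimmer probe (A_51_P492366, 172614169 to 172614228), also printed 10 times, gave -1.74, -1.69 and -1.65 in BRG1 siRNA cells, against -1.45, -1.43 and -1.43 in control cells. It did not overlap between groups either and differed by -0.25 ± 0.04 (SE, adjusted p = 0.0151).

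The Bmp7 calls depended on the scaling, on the filter on dim probes and on single arrays. Scaling on the spike-in probes put the median difference of all probes at 0.18, beside -0.029 as reported, and there the differences were -0.16 (adjusted p = 0.178) for the brighter and -0.046 (adjusted p = 0.716) for the dimmer probe, and with median scaling they were -0.31 (adjusted p = 0.0912) and -0.20 (adjusted p = 0.272). Both calls were lost with no filter on dim probes (adjusted p = 0.0572 for the brighter and 0.0678 for the dimmer probe). The call of the brighter probe was also lost without BRG1 siRNA replicate 2 (-0.37, adjusted p = 0.0605), control replicate 2 (-0.37, adjusted p = 0.0612) or control replicate 3 (-0.36, adjusted p = 0.0698), and that of the dimmer probe without any of these or without BRG1 siRNA replicate 1, at adjusted p from 0.0506 to 0.0773 in these arrangements. Within slide 1 the brighter probe differed by -0.47 (adjusted p = 0.0742, and 0.0421 with slide as a block) and the dimmer by -0.30 (adjusted p = 0.0944, and 0.0603 with slide as a block).

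Repeated spots showed how closely 1 array measures a member. Over 8 to 10 usable spots the SD of the dimmer Bmp7 probe within an array was 0.028 to 0.077. For Bmp4 the SD over spots was 0.058 to 0.066 on the BRG1 siRNA arrays and 0.048 to 0.081 on the control arrays. The repeated spots are technical, do not measure the spread between cultures, and were counted as 1 value per array. The change of the brighter Bmp7 probe minus that of Bmp4 was -0.37, with no overlap between groups. An exact permutation test, two-sided, gave p = 0.1 (adjusted over 2 pairs, 0.1), the smallest that 3 arrays against 3 can give. The pair was chosen after the values were seen, so the test adds no support.

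**Figure D2:**
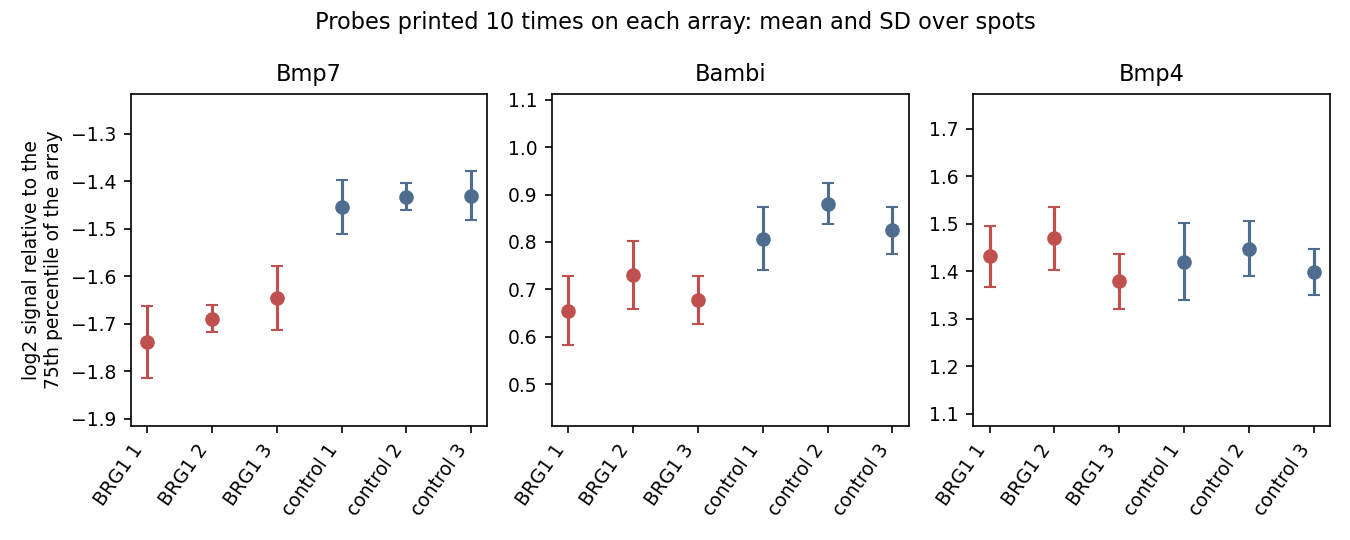
Mean and SD over the spots of the 3 member probes printed 10 times on each array (log2 signal minus the array's 75th percentile), with BRG1 siRNA arrays left of control siRNA arrays. Bmp7 and Bambi lay lower on all 3 BRG1 siRNA arrays than on any control array, and the Bmp4 arrays of both groups lay between 1.38 and 1.47.

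Smad1, which carries the BMP signal from receptor to nucleus, did not pass the test on either probe in the reported setting. The brighter probe (A_51_P409260) gave 1.72, 1.68 and 1.70 in BRG1 siRNA cells, against 1.58, 1.60 and 1.64 in control cells. The groups did not overlap, at a difference of 0.095 ± 0.041 (SE, adjusted p = 0.162). This probe passed with normexp background correction (0.16, adjusted p = 0.0461) and with quantile normalization after it (0.18, adjusted p = 0.0245). The dimmer probe (A_52_P65108) overlapped and had the opposite sign, -0.088 ± 0.057 (SE, adjusted p = 0.327), which turned to 0.12 with spike-in scaling.

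The inhibitors differed from each other. Smad6, an inhibitory SMAD that competes with receptor-activated SMADs, was the member with the largest change: its probe gave -1.21, -1.29 and -1.18 in BRG1 siRNA cells, against -1.73, -1.99 and -1.92 in control cells. The groups were well apart, and the difference was 0.66 ± 0.08 (SE, adjusted p = 0.00616; 95% confidence interval 0.46 to 0.86). On the linear scale before scaling between arrays, the processed signal was 931, 825 and 877 in BRG1 siRNA cells and 591, 586 and 547 in control cells. Leaving out any array kept the call, at 0.60 to 0.73, and with spike-in scaling the difference was 0.86. Within slide 1 it was 0.68 with an adjusted p of 0.097, and of 0.0565 with slide as a block.

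Smad7, the other inhibitory SMAD, which also recruits ubiquitin ligases to the receptors, gave 1.99, 1.83 and 1.84 in BRG1 siRNA cells, against 2.00, 1.99 and 1.96 in control cells. BRG1 siRNA replicate 1 lay within the control range and the other two below it. The difference was -0.096 ± 0.059 (SE, adjusted p = 0.301; 95% confidence interval -0.24 to 0.05), and it was 0.11 with spike-in scaling. The change of Smad6 minus that of Smad7 was 0.75 and the groups did not overlap. An exact permutation test, two-sided, gave p = 0.1 (adjusted over 2 pairs, 0.1), the smallest possible. This pair too was chosen after the values were seen, so the test adds no support.

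Bambi, a receptor-like protein without a kinase domain that blocks BMP and TGF-beta receptors, had 1 tested probe (A_51_P248819, 10 spots per array) and another that was not well above background on any array. The tested probe gave 0.66, 0.73 and 0.68 in BRG1 siRNA cells, against 0.81, 0.88 and 0.82 in control cells. The groups did not overlap, and the difference of -0.15 ± 0.04 (SE) had an adjusted p of 0.0703. It passed with normexp background correction (-0.17 with adjusted p = 0.0473, and -0.16 with adjusted p = 0.0391 after quantile normalization) and was 0.057 (adjusted p = 0.687) with spike-in scaling. The probe also passed with array weights (-0.12, adjusted p = 0.0376) and by eBayes with trend and robust (adjusted p = 0.0344).

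The 4 ID genes did not move together. Id1, the ID gene most often used as a readout of BMP signalling, overlapped between groups on both probes. The brighter probe (A_52_P533809, 152478167 to 152478226 on chromosome 2) gave 3.54, 3.62 and 3.71 in BRG1 siRNA cells, against 3.82, 3.53 and 3.61 in control cells, a difference of -0.032 ± 0.091 (SE, adjusted p = 0.834; 95% confidence interval -0.26 to 0.19). The dimmer probe shares 50 of its 60 bases with the brighter and is not an independent reading; it differed by -0.075 ± 0.085 (SE, adjusted p = 0.573). Control replicate 1 was the highest array on both probes. Of these differences, the brighter probe's turned positive with 5 other background corrections or scalings and the dimmer probe's with spike-in scaling, none past the test.

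Id3, which like Id1 responds to BMP in many cell types, overlapped between groups too. Its probe gave 1.41, 1.62 and 1.55 in BRG1 siRNA cells, against 1.63, 1.42 and 1.49 in control cells. The difference of 0.012 ± 0.083 (SE, adjusted p = 0.934) had a 95% confidence interval from -0.19 to 0.22, and with spike-in scaling it was 0.22 (adjusted p = 0.101). At the 75th percentile scaling, a difference of the size seen for Smad6 lies outside the intervals of Id1, Id3 and Bmp4.

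Id2, which in other tissues controls lymphoid and mammary development, was measured by 2 probes that share no position on chromosome 12. The brighter probe (A_52_P240542, 22930541 to 22930600) gave 2.44, 2.50 and 2.51 in BRG1 siRNA cells, against 2.45, 2.28 and 2.26 in control cells. Control replicate 1 lay within the BRG1 siRNA range, and the difference was 0.15 ± 0.06 (SE, adjusted p = 0.152). The dimmer probe, whose sequence is printed above, gave 0.88, 1.05 and 0.73 in BRG1 siRNA cells, against 0.18, 0.66 and 0.60 in control cells. There the groups did not overlap, at 0.41 ± 0.15 (SE, adjusted p = 0.117). Neither probe passed in the reported setting, but the mean over both probes did, at 0.28 (adjusted p = 0.036 over genes). The brighter probe passed with spike-in scaling (0.36, adjusted p = 0.023) as well as after normexp correction followed by quantile normalization (0.24, adjusted p = 0.0319). With array weights both probes passed (adjusted p = 0.0238 for the brighter and 0.0356 for the dimmer). The dimmer probe also passed by eBayes with trend and robust (adjusted p = 0.0495).

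Id4, the ID gene known best from neural and germ line stem cells, was lower on both probes without overlap between groups, and the dimmer probe passed. The brighter probe (A_52_P449871, 47746118 to 47746177 on chromosome 13) gave -1.37, -1.32 and -1.12 in BRG1 siRNA cells, against -0.91, -1.10 and -1.02 in control cells, a difference of -0.26 ± 0.09 (SE, adjusted p = 0.0881). The dimmer probe (A_51_P494430, 47746630 to 47746689) gave -3.48, -3.69 and -3.63 in BRG1 siRNA cells, against -2.97, -3.27 and -3.06 in control cells. Its difference was -0.50 ± 0.10 (SE, adjusted p = 0.0224). The mean over both probes passed, at -0.38 (adjusted p = 0.0236 over genes). The dimmer probe's call was lost with spike-in scaling (-0.29, adjusted p = 0.111), with no filter on dim probes (adjusted p = 0.0745), and without BRG1 siRNA replicate 2, control replicate 1 or control replicate 3 (-0.45, -0.44 and -0.48; adjusted p = 0.0837, 0.0613 and 0.0918). Its difference was -0.34 and -0.33 with normexp background correction and -0.37 within slide 1 (adjusted p = 0.209, and 0.153 with slide as a block). The brighter probe passed without BRG1 siRNA replicate 3 (-0.34, adjusted p = 0.037). It also passed with array weights (-0.29, adjusted p = 0.0109) and by eBayes with trend and robust (adjusted p = 0.0458).

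**Figure D3:**
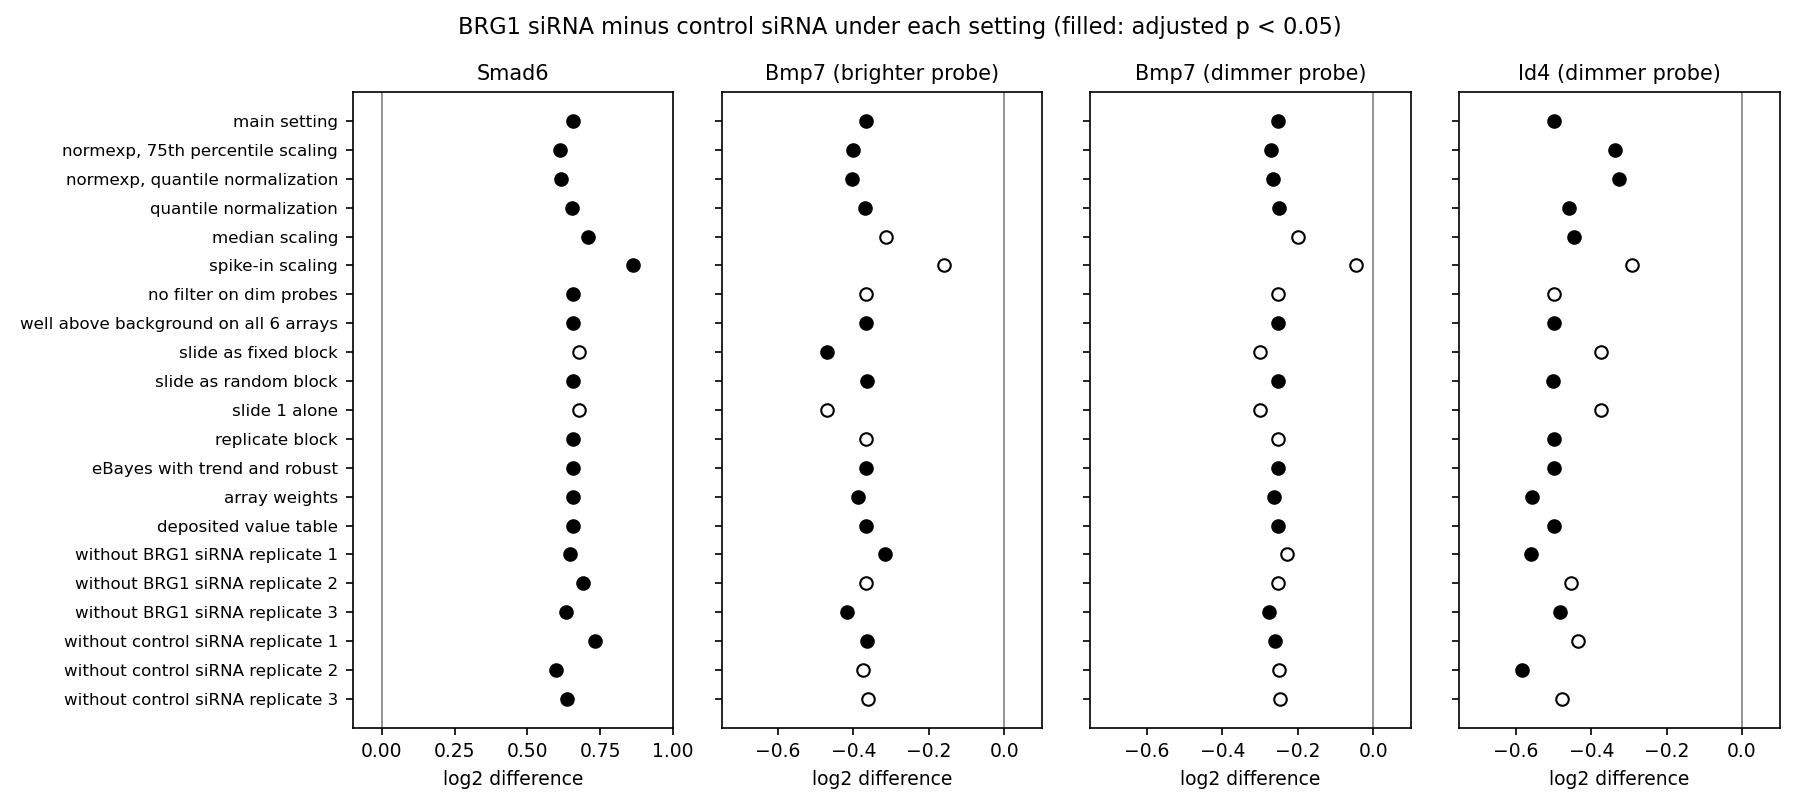
Log2 difference, BRG1 siRNA minus control siRNA (horizontal axes), of the 4 member probes past the test. Rows are the reported setting and each alternative except the mean over probes and the brightest probes alone. Filled circles have adjusted p under 0.05. Every circle keeps its sign; Smad6 is open only with slide as a fixed block or slide 1 alone, and both Bmp7 probes come closest to 0 with spike-in scaling, at -0.16 and -0.046.

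Around these members, 76 further genes of the pathway were described by role, of which 59 were tested by their brightest probe. Of these 6 rose, 8 fell and 45 did not pass, against 9.02% higher and 12.2% lower over all genes, and their median difference was -0.044. The number past the test fell to 6, 5, 3 and 3 without BRG1 siRNA replicate 1, BRG1 siRNA replicate 2, control replicate 2 and control replicate 3, and none of the rises passed in these 4 arrangements. With slide as a block 3 passed, all lower.

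Most other BMP ligand genes were dim or level. Only 6 of 13 were tested, and 0 passed by limma (1 at an unadjusted p under 0.05), at a median difference of -0.015. Over all genes 21.3% passed the same test. Gdf3, a TGF-beta family ligand of pluripotent cells, differed by -0.10 ± 0.06 (SE, adjusted p = 0.304), and Bmp8a, whose groups did not overlap, by 0.19 ± 0.07 (SE, adjusted p = 0.114). Bmp2, a ligand that signals through the same receptors as BMP4, was not well above background on every array of either group and was not tested.

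Among receptors and co-receptors, 1 of 10 tested genes rose and 2 fell, against 9.02% higher and 12.2% lower over all genes. The kinase receptor genes Bmpr1a and Bmpr2 differed by -0.082 ± 0.043 (SE, adjusted p = 0.242) and -0.083 ± 0.051 (SE, adjusted p = 0.303). The co-receptor gene Rgma gave -1.12, -1.10 and -1.15 in BRG1 siRNA cells, against -0.90, -0.87 and -0.84 in control cells, and fell by 0.25 ± 0.04 on the log2 scale (SE, adjusted p = 0.0131). Hjv, a BMP co-receptor known from iron control, fell by 0.53 ± 0.11 (SE, adjusted p = 0.0271), and Eng, which encodes endoglin, a co-receptor of endothelium, rose by 0.29 ± 0.08 (SE, adjusted p = 0.0491). The Eng call was lost when any array was left out. The Rgma call was lost under median or spike-in scaling, and also with control replicate 2 or 3 left out, and the Hjv call with 4 normalizations and when BRG1 siRNA replicate 1 or 2 or control replicate 2 or 3 was left out.

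Among other SMADs and their partners, 3 of 12 tested genes rose and 3 fell, against 9.02% higher and 12.2% lower over all genes. Skil, which encodes SnoN, a corepressor that binds SMADs, gave 2.02, 1.96 and 2.09 in BRG1 siRNA cells, against 2.47, 2.46 and 2.47 in control cells. The groups did not overlap, and Skil fell 1.36-fold (-0.44 ± 0.05 SE, adjusted p = 0.0046), with its other probe at -0.38 (adjusted p = 0.00479). The call held with slide as a block and was lost with spike-in scaling and within slide 1; over the alternatives the difference ran from -0.47 to -0.23. Smad3, which transmits TGF-beta and activin signals, rose 1.28-fold (0.35 ± 0.06 SE, adjusted p = 0.0162), with its 2 other probes at 0.41 (adjusted p = 0.0196) and 0.42 (adjusted p = 0.231).

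Smad4, the partner shared by BMP and TGF-beta SMADs, and Smurf1, a ubiquitin ligase for SMADs, each had probes that disagreed. The brighter Smad4 probe fell (-0.25 ± 0.04 SE, adjusted p = 0.0179) and the other was at 0.14 (adjusted p = 0.408). The brighter Smurf1 probe rose (0.35 ± 0.06 SE, adjusted p = 0.0156) and the other was at 0.033 (adjusted p = 0.779). Both calls were lost with the mean over probes. Zfp423, a zinc finger partner of BMP SMADs, rose on both probes, by 0.23 and 0.34 (adjusted p = 0.0396 and 0.0213). Ppm1a, a phosphatase for SMADs, was at -0.18 (adjusted p = 0.032), and at 0.029 with spike-in scaling. Its other probes were at -0.17 (adjusted p = 0.0456) and -0.079 (adjusted p = 0.212). The calls of Smad3, Smad4, Smurf1, Zfp423 and Ppm1a were each lost without BRG1 siRNA replicate 1, BRG1 siRNA replicate 2, control replicate 2 or control replicate 3.

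Extracellular antagonists and modulators held the largest change of the pathway. Of 14 tested genes 1 rose and 3 fell, against 9.02% higher and 12.2% lower over all genes. Fst, which encodes follistatin, a secreted binder of activins and some BMPs, gave -2.39, -2.47 and -2.34 in BRG1 siRNA cells, against -1.25, -1.07 and -1.01 in control cells. It fell 2.44-fold (-1.29 ± 0.08 SE, adjusted p = 0.00143). Grem1, the BMP-binding antagonist gremlin, gave -3.14, -3.08 and -3.06 in BRG1 siRNA cells, against -2.52, -2.58 and -2.65 in control cells, and fell 1.42-fold (-0.51 ± 0.05 SE, adjusted p = 0.00393).

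The calls of Fst and Grem1 were lost within slide 1 alone among the alternatives run, at adjusted p of 0.0679 and 0.0803. Bmp1, a protease that cleaves the antagonist chordin, rose by 0.24 ± 0.05 (SE, adjusted p = 0.031), with its other probe at -0.15 (adjusted p = 0.645). The mean over both was 0.048 and did not pass (adjusted p = 0.795 over genes), and with 1 array left out the call was kept only without BRG1 siRNA replicate 3. Nog and Chrd, the classical BMP antagonists noggin and chordin, were among the 10 of 14 tested genes that did not pass, at -0.0011 ± 0.243 and -0.090 ± 0.127 (SE).

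Fibroblast markers were read beside these antagonists and moved both ways. Of 12 such markers 11 were tested, of which 4 fell, 1 rose and 6 did not pass, against 12.2% lower and 9.02% higher over all genes. Their summed linear level relative to the 75th percentile ranged from 33.3 to 34.5 in BRG1 siRNA cells and from 42.1 to 43.2 in control cells. Of the defining markers, Lum stood well above background on 0 of 3 BRG1 siRNA arrays and on 2 of 3 control arrays. Col1a1, S100a4, Thy1 and Col3a1 fell by 1.28-fold, 2.12-fold, 1.73-fold and 1.66-fold (adjusted p = 0.0129, 0.00138, 0.0031 and 0.00556). Lox rose 1.68-fold (adjusted p = 0.00351). Without overlap between groups, 7 of the 11 lay lower and 1 higher, against 25.0% and 18.8% of all genes. Col1a2, Postn and Dcn did not pass, at 0.0061, -0.040 and -0.19. Acta2, which did not pass either (-0.19, adjusted p = 0.0606), made up 22.8 to 24.8 of the sum in BRG1 siRNA cells and 26.1 to 27.8 in control cells; the other 11 summed to 9.76 to 10.5 in BRG1 siRNA cells and 14.7 to 16.01 in control cells, a split chosen after the values were seen. The part of fibroblast RNA in the falls of Fst, Grem1 and Bmp7 was not tested. Summed trophectoderm markers ranged from 88.91 to 93.8 in BRG1 siRNA cells and from 77.2 to 88.92 in control cells. Krt18 and Krt8, the brightest of these, did not pass (0.15 and 0.11, adjusted p = 0.151 and 0.397). Of 7 tested, 2 were higher (Tfap2c, 0.30, and Hand1, 0.79) and 3 lower (Cdx2, -0.95, Eomes, -0.66, and Krt7, -0.79). Over all genes 9.02% were higher and 12.2% lower. Elf5 was not above background on any array. Primitive endoderm markers, with Afp not above background on any array, summed to 0.60 to 0.67 in BRG1 siRNA cells and 0.59 to 0.81 in control cells, with 1 of 6 tested lower and none higher (0 higher at an unadjusted p under 0.05 too).

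Further genes known to respond to BMP, and the E proteins and other partners of ID proteins, showed few calls. Of 9 tested BMP-responsive genes 1 rose and none fell by the limma test, against 9.02% higher and 12.2% lower over all genes. The rise was Gata2, a zinc finger factor of blood and trophoblast (0.17 ± 0.05 SE, adjusted p = 0.0494; other probe 0.33, adjusted p = 0.0147), a call lost when any array was left out. Msx2, a homeobox target of BMP signals, was at 0.046 ± 0.092 (SE, adjusted p = 0.761), and Dusp9, a phosphatase known to respond to BMP4 in ES cells, at -0.022 ± 0.072 (SE, adjusted p = 0.854). Dlx5, a dim homeobox gene, was at -0.66 ± 0.47 (SE, adjusted p = 0.365). It stood well above background on 3 of 3 control arrays but on 2 of 3 BRG1 siRNA arrays. Dlx5 was thus tested only through the control group, where it was higher.

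Of 8 tested ID partners 0 passed by limma (3 at an unadjusted p under 0.05), at a median of -0.15. By the same test 21.3% of all genes passed. Tcf3 and Tcf4, which encode E proteins, lay lower in BRG1 siRNA cells without overlap between groups, at -0.19 ± 0.07 (SE, adjusted p = 0.116) and -0.20 ± 0.07 (SE, adjusted p = 0.0864). Tcf12, the third E protein gene, overlapped between groups, at 0.013 ± 0.056 (SE, adjusted p = 0.896).

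**Figure D4:**
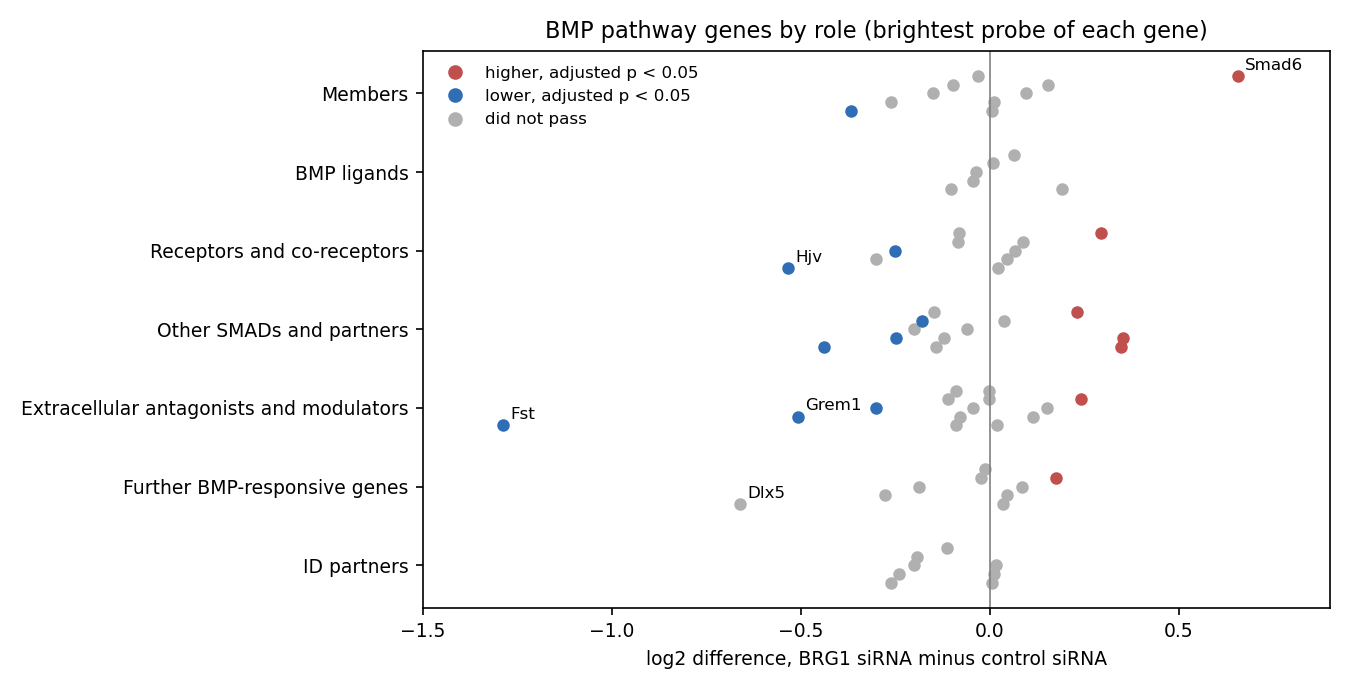
Log2 difference, BRG1 siRNA minus control siRNA (horizontal axis), of each tested gene of the 10 members and of 6 further role lists (rows), by its brightest probe. Red points were higher and blue points lower at adjusted p under 0.05, grey points did not pass; Smad6 lies farthest to the right at 0.66 and Fst farthest to the left at -1.29.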

How the data were processed

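Total RNA of 6 samples, 3 per siRNA, was measured on single-colour arrays. The deposited scanner files hold spot intensity from Agilent Feature Extraction 9.5.3.1, per the file headers (9.5 per the submitters' processing notes), on array design 014868 with mm7 coordinates. Per the file headers, the processed signal was background-subtracted within each array, and the deposited value table held the same intensities (largest difference 0).

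From the deposited intensities, log2 values were computed and the array's own 75th percentile, taken over non-control spots, was subtracted; spots marked as outliers were left out, saturated spots kept, and spots of a probe averaged. Probes that stood well above background on all arrays of either group were tested two-sided with limma 3.58.1 (lmFit, eBayes; R 4.3.3), and p-values were adjusted by Benjamini-Hochberg over all of them, with 0.05 as the threshold. A gene was represented by its probe with the highest mean signal. All 10 members with all probes are named, and from each pathway list up to 4 genes per direction past the threshold with the largest change, which took in every gene past it, of which 1 is not reported here; genes not past it are named only with their values or as not tested, and were picked for their role. The members, lists and tests were chosen with earlier results of these data known. The method was tested on simulated data. Sequences are from the scanner files and RefSeq (GRCm38.p6). The alternatives were other background corrections, scalings, filters and probe summaries, slide and replicate blocks, and each array left out. Depth does not apply to arrays.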

Additional observations from a re-analysis of the deposited data

How the results depend on the processing

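The reported calls were 4 member probes, 2 member genes, 14 further pathway genes and 5152 of all probes; of these, moves by more than 1.5 times follow. With normexp correction (offset 50) member genes numbered 4 with 75th percentile scaling, and 5, with 7 probes, with quantile normalization. Median scaling gave 2 member probes, 1 member gene, 4 pathway genes and 2030 probes. Spike-in scaling gave 2 member probes, both higher, and among all 5470 calls 4769 higher and 701 lower. With no filter on dim probes the counts were 1, 1, 4 and 1856, with slide as a fixed block 1, 1, 3 and 1231, and with slide 1 alone 0, 0, 0 and 78 (limma; 4, 3, 16 and 7652 at an unadjusted p under 0.05). Correlations of deviations from the group means were -0.29, 0.12 and 0.029 between arrays of the same replicate number. Between arrays of different numbers they ran from -0.35 to 0.32, so they do not show pairing by number and cannot exclude it. With the replicate number as a block the counts were 2, 1, 3 and 2146, and both Bmp7 calls were lost (adjusted p = 0.0534 and 0.061). Array weights gave 8, 5, 22 and 10802, eBayes with trend and robust gave 7 member probes and 4 member genes, the mean over probes gave 4 member genes, and the brightest probes alone gave 2 member probes. Leaving out 1 array gave 1 to 5 member probes, 1 to 3 member genes, 3 to 12 pathway genes and 1635 to 5702 probes. The Smarca4 call was lost with spike-in scaling (-0.40), slide as a block and slide 1 alone (both -0.54). Signs turned for values that did not pass the test, apart from Ppm1a (0.029 with spike-in scaling). The brighter Id1 probe became 0.075 and 0.10 with normexp (75th percentile, quantile), 0.016 with quantile normalization, 0.020 with median and 0.17 with spike-in scaling, and 0.011 and 0.051 without BRG1 siRNA replicate 1 and control replicate 1 (-0.094 to 0.051 with 1 array left out); the dimmer became 0.13 with spike-in scaling and 0.0061 without control replicate 1 (-0.13 to 0.0061). With spike-in scaling Bambi became 0.057, the dimmer Smad1 probe 0.12 and Smad7 0.11; with slide as a block or slide 1 alone Smad7 became 0.012 and Id3 -0.11. Leaving out 1 array gave Id3 -0.036 to 0.073, with 4 values below 0, and Bmp4 -0.016 and -0.0068. The cause of these shifts was not tested. The signal over background limits the dimmer Bambi probe and 17 pathway genes, which were not tested.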
